A study of Mus musculus with 6 samples.

Results

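The mRNAs of the cytosolic ribosomal proteins were followed in mouse livers after ischemia and reperfusion, with and without ginsenoside Rk2, a saponin of processed ginseng. The members were every gene of the deposited count table whose symbol marks a protein of the large (Rpl) or small (Rps) ribosomal subunit, with the stalk proteins Rplp0, Rplp1 and Rplp2 and with Rpsa, but without pseudogenes and the Rps6k kinases. This rule found 84 of 15454 genes, 52 of the large and 32 of the small subunit. All 6 libraries came from whole liver of male C57BL/6 mice, 8 to 10 weeks old, in which warm ischemia of 75% of the liver had been followed by reperfusion. The 3 I/R mice had been given vehicle solution. The 3 I/R+Rk2 mice had been given ginsenoside Rk2 dissolved in that vehicle, 2 days before the operation and again as perfusion began. Both groups were injured, so no uninjured liver entered the comparison, and the question was what Rk2 did to these mRNAs within injured tissue.

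The ribosome joins amino acids in the order that an mRNA gives, and each of its subunits is built in the nucleolus from ribosomal RNA, made by RNA polymerase I, and from ribosomal proteins imported from the cytosol. Ribosomal protein mRNAs are among the most abundant of any cell, and most begin with a terminal oligopyrimidine (TOP) tract, a C followed by further pyrimidines, through which the kinase complex mTORC1, a target of the AKT pathway, controls how strongly they are translated. In liver, ribosome production rises with feeding and regeneration. RNA sequencing measures the amount of these mRNAs and not their translation.

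The sequence around the annotated transcription start was searched for features that some of these genes share. The start windows below were chosen to set the genes with the firmest differences (Rps27l, Rps2, Rpl37a and Rpl23) beside members that did not pass the test. Of the 84 members, 64 matched RefSeq promoters (GRCm38.p6), with 76 annotated starts between them. Each line gives 30 bases on the strand of the transcript, centred on a start. Capitals mark a pyrimidine stretch, defined here as a C no more than 5 bases from the start with at least 4 further C or T bases behind it. Windows without capitals had no such stretch at the annotated start. Starts used in these livers were not measured, so such windows do not show that an mRNA lacks a TOP tract. The uncalled members shown all carry a stretch, but other uncalled members, such as Rpl5 and Rps3, had none.
Rps27l (chr9:66946071-66946100, plus strand): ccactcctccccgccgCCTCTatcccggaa
Rps2 (chr17:24720048-24720077, plus strand): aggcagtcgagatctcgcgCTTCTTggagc
Rpl37a (chr1:72711245-72711274, plus strand): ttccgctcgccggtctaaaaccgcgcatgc
Rpl23 (chr11:97782425-97782454, minus strand): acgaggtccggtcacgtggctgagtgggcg
Rps27 (chr3:90213634-90213663, minus strand): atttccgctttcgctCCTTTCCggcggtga
Rps6 (chr4:86857353-86857382, minus strand): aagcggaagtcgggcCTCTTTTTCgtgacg
Rpl13a (chr7:45128731-45128760, minus strand): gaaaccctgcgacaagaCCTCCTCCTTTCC
Rplp2 (chr7:141447636-141447665, plus strand): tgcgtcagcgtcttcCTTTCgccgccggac

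A stretch was present at 31 of the 76 member starts (40.8%) and at 18.3% of the 32851 starts of all genes. Over the whole window from 250 bases before to 50 bases after the start, on both strands, CCGGAAG, the core recognised by ETS factors, occurred in 35.5% of member promoters and 8.86% of all promoters. ATGGCGG, the core recognised by the zinc-finger protein YY1, occurred in 18.4% and 4.05%. The reverse complement of the ETS core, CTTCCGG, opens with pyrimidines, so it can overlap a stretch. These matches describe letters and not bound factors. The tested members with a stretch (29) had a median log2 fold change of 0.12, with 4 called higher and 0 lower, and those with a window but no stretch (32) had 0.06, with 4 higher and 1 lower. The 20 tested members without a window had 0.11, with 5 higher and 0 lower. A gene was called when its edgeR quasi-likelihood test gave an adjusted p below 0.05, which held for 20.3% of all tested genes as higher and 23.7% as lower.

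Ribosomal protein mRNAs were abundant in all livers. Counts were summed to between 16809613 and 35618074 per library, and the tested members took from 474 to 15407 counts each. Together the members held 1.141%, 1.003% and 1.067% of all counts in I/R replicates 1 to 3 and 1.057%, 1.046% and 0.972% in I/R+Rk2 replicates 1 to 3. As a share of counts the groups overlapped. After scaling by trimmed mean of M values (TMM), the summed level was 9996, 9813 and 10540 CPM (counts scaled to one common library size) in the I/R livers and 10840, 11030 and 10630 CPM in the I/R+Rk2 livers, and here the groups lay apart. The TMM factors themselves differed by group, from 1.01 to 1.14 in I/R and from 0.914 to 0.976 in I/R+Rk2.

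Levels between genes were compared per transcript length, in FPKM (fragments scaled to transcript length and to sequencing depth). The mean FPKM over the 6 livers had a median of 143.9 over the 81 tested members and ran from 20.1 for Rps15a to 448 for Rpl13a, a large subunit protein that also serves a complex that silences inflammatory transcripts. Rpl13a stood at 450.4, 351.1 and 579.4 FPKM in the I/R livers and at 456.8, 479.5 and 371 FPKM in the I/R+Rk2 livers, so the most abundant member overlapped between the groups (log2 fold change by count 0.17, edgeR adjusted p = 0.265; in FPKM -0.06). Rplp1 and Rps2 followed it. The lowest places went to Rps15a, Rpl7l1 and Rps20. For Rps15a and Rps20 the annotated transcripts are long, 5130 and 3706 bases, where the median member has 771, so their place in the order depends on the transcript models behind the FPKM.

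**Figure D1:**
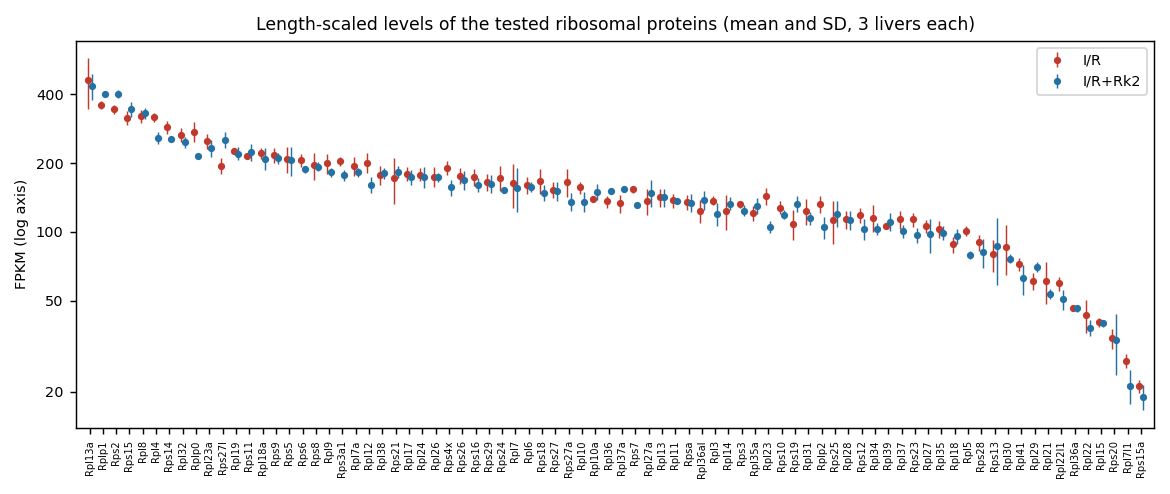
Level per transcript length (FPKM, log axis) of tested ribosomal proteins, ordered by their mean over the 6 livers; points are means and bars SDs of 3 I/R (red) and 3 I/R+Rk2 (blue) livers. The levels run from 448 for Rpl13a to 20.1 for Rps15a, and for most genes the bars of the groups overlap or nearly meet.

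The tissue-restricted members were absent or nearly so. Rpl3l, the form of Rpl3 made in heart and skeletal muscle, had 5 counts in I/R replicate 3 and 0 in the other 5 libraries. Rpl39l and Rpl10l, known from testis, had 4 counts in I/R+Rk2 replicate 2 and 1 count in I/R replicate 2, and 0 elsewhere. A level of 3 counts corresponds to between 0.0888 and 0.184 CPM in these libraries, a limit for counting error only. These 3 genes did not pass the filter on low counts, and the other 81 members, 49 of the large and 32 of the small subunit, were tested.

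Rk2 livers differed little from vehicle livers in these mRNAs. Of the 81 tested members 14 (17.3%) were called, 13 higher and 1 lower in I/R+Rk2, whereas 43.9% of the 12411 genes tested were called, 20.3% higher and 23.7% lower. With the trend of fold change with transcript length removed the members split instead into 1 higher and 18 lower (19.4% and 20.6% of all genes in that fit), and with library size as the only scaling into 1 higher and 3 lower (10.6% and 28.0% of all genes). Leaving out I/R replicate 1, 2 or 3 left 7, 6 and 9 members called higher, and leaving out I/R+Rk2 replicate 1, 2 or 3 left 12, 2 and 9. Over all genes, in either direction, the fits without an I/R liver called 4002 of 12565, 4582 of 12586 and 3946 of 12580. Those without an I/R+Rk2 liver called 5459 of 12653, 3933 of 12628 and 4613 of 12664, against 5454 of 12411 in the reported fit. None of the 14 passed a fold change of 2, a limit that 14.6% of all tested genes passed together with the test. The livers of the groups did not overlap for 35 members, 23 of the large and 12 of the small subunit, against 57.4% of all tested genes.

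The size of the differences was as narrow as their number was small. The middle 50% of the members lay between -0.01 and 0.21 in log2 fold change, where those of all tested genes lay between -0.51 and 0.38. For 58 of the 81 members the log2 fold change was within 0.2 of zero, as it was for 23.5% of all genes. The widest member difference, 0.64 for Rps20, was exceeded in absolute value by 33.2% of all tested genes. Livers of one group also resembled each other in these mRNAs: the coefficient of variation of CPM had a median of 5.25% in I/R and 5.23% in I/R+Rk2, with the largest values for Rps21 (16.6%) in I/R and Rps20 (29.8%) in I/R+Rk2. This coefficient was not taken over all genes. Every tested member had at least 474 counts in each library, whereas all tested genes include some with lower counts, and genes of like abundance were not compared.

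**Figure D2:**
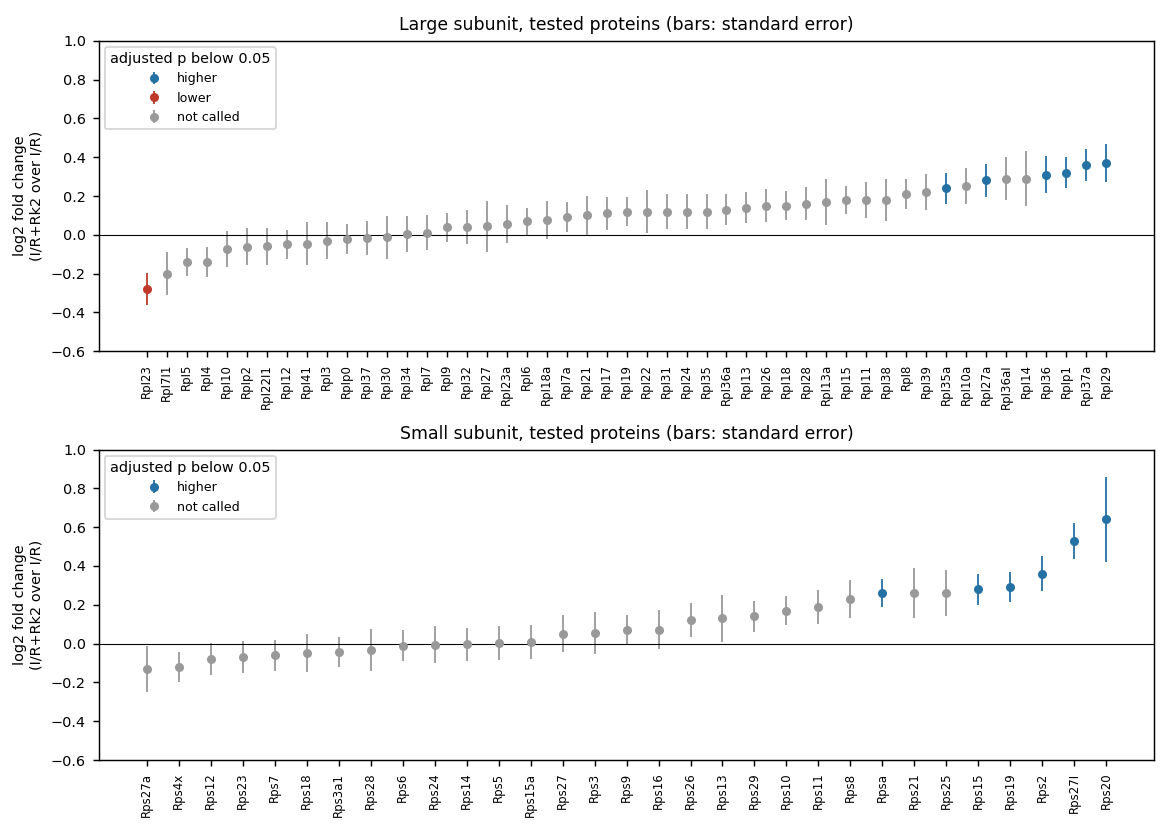
Log2 fold change of CPM (I/R+Rk2 over I/R) of tested proteins of the large (top) and small (bottom) subunit, with its standard error; blue was called higher, red lower and grey not called. Points run from -0.28 for Rpl23 to 0.64 for Rps20, and the blue points lie towards the right of each panel; in FPKM Rps20 turned to -0.06 and Rpsa to -0.004.

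In the large subunit 6 of 49 tested proteins were called higher and 1 lower, and the median log2 fold change was 0.12, which was 0.07 without I/R replicate 2 and turned to -0.05 with library size alone, to -0.12 with the length trend removed and to -0.06 in FPKM. Over all tested genes the shares called higher and lower were 20.3% and 23.7%. The median of all genes was -0.01, and -0.17 with library size alone. Relative to that shift the large subunit stood 0.12 above all genes under every scaling of the counts tried, and 0.14 below them once the length trend was removed. In FPKM the median of all genes was -0.12, and relative to it the large subunit stood at 0.06 (-0.009 without the filter). The calls were Rpl37a, Rplp1, Rpl29, Rpl36, Rpl27a and Rpl35a (higher) and Rpl23 (lower); Rpl27a, Rpl35a and, in the small subunit, Rps15 are outside the rule for named genes and were added after their values were seen, as were Rps6, Rps15a, Rps21 and Rps27.

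Rpl37a (chr1:72711290-72713813, plus strand), a zinc-finger protein of the large subunit, had the smallest p of its subunit. Its level was 75.7, 70.3 and 81.2 CPM in the I/R livers and 96, 99.3 and 96.5 CPM in the I/R+Rk2 livers, so every Rk2 liver was above every vehicle liver. Means were 75.7 ± 5.46 and 97.3 ± 1.82 CPM (SD, n = 3; log2 fold change 0.36, standard error 0.08, edgeR adjusted p = 0.0125). Its annotated transcript has 558 bases and, with the length trend removed, the value was 0.09 (edgeR adjusted p = 0.386).

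Rplp1, a protein of the stalk that draws elongation factors to the ribosome, was at 175.5, 181 and 188 CPM in vehicle livers and 214.5, 231.8 and 233 CPM in Rk2 livers, again without overlap (log2 fold change 0.32, standard error 0.08, edgeR adjusted p = 0.016). With the length trend removed Rplp1 was at 0.04 (edgeR adjusted p = 0.72), with library size alone at 0.16 (0.202) and in FPKM at 0.16 (limma adjusted p = 0.188). Its partners on the stalk were not called. Rplp2 was at 109.2, 100.9 and 112.9 CPM in vehicle livers and 108.9, 108.1 and 92.4 CPM in Rk2 livers (log2 fold change -0.06, edgeR adjusted p = 0.632). Rplp0, which anchors both of them, was at 320.9, 325.9 and 345 CPM and at 323, 322.6 and 332.5 CPM, and did not pass the test (log2 fold change -0.02, edgeR adjusted p = 0.851).

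The deposited FPKM placed Rplp0 differently, at 292.2, 288 and 242.5 in I/R and 218.7, 211.7 and 213.7 in I/R+Rk2, where the groups did not overlap (limma adjusted p = 0.0294). The same gene was therefore level by count and lower by FPKM in the Rk2 livers. The gap between the tables ranged over 0.31 on the log2 scale across libraries for this gene, and its source was not tested.

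Rpl23 (chr11:97777527-97782437, minus strand), a large subunit protein that also binds the p53 inhibitor Mdm2, was the one member called lower. It stood at 150.7, 141.7 and 157.3 CPM in the I/R livers and at 123.1, 129.8 and 116.9 CPM in the I/R+Rk2 livers, each Rk2 liver below each vehicle liver. Means were 150 ± 7.83 and 123 ± 6.45 CPM (SD, n = 3; log2 fold change -0.28, standard error 0.08, edgeR adjusted p = 0.0296). It kept its sign under all 18 alternatives and the call under 12 of them. Among the losses were those on leaving out I/R replicate 1 or 3 (edgeR adjusted p = 0.07 and 0.102) or I/R+Rk2 replicate 2 or 3 (0.0512 and 0.09), and with upper-quartile scaling (0.0547).

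Next to Rpl23 in the order were Rpl7l1, a paralog of Rpl7, at -0.2 (edgeR adjusted p = 0.179), and Rpl5, which with Rpl11 binds Mdm2 when ribosome assembly is disturbed, at -0.14 (0.15). Rpl5 was at 140.1, 144.5 and 142.2 CPM in vehicle livers and at 128.3, 133.4 and 124.8 CPM in Rk2 livers, without overlap and without passing the test, and it shares exon positions with Fam69a on the opposite strand. With library size alone Rpl5 was called lower (edgeR adjusted p = 0.0397), and so it was in FPKM (-0.34, limma adjusted p = 0.0202). In all, 4 of the 18 alternatives called it lower.

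The remaining large subunit calls were small. Rpl29, which outside the ribosome binds heparin, was at 42.1, 44.8 and 38.7 CPM in vehicle livers and at 48.3, 56.3 and 57.4 CPM in Rk2 livers (log2 fold change 0.37, edgeR adjusted p = 0.0253). Rpl36 went from 55.5 ± 5.07 to 69 ± 3.59 CPM (SD, n = 3; 0.31, edgeR adjusted p = 0.0335). Rpl27a gave 0.28 (edgeR adjusted p = 0.0342) and Rpl35a 0.24 (0.0494), the latter turning to -0.04 with the length trend removed. Livers of the groups did not overlap for any of these 4 genes, and each lost its call under at least 9 of the alternatives.

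In the small subunit 7 of 32 tested proteins (21.9%) were called higher and 0 lower, against 20.3% and 23.7% of all tested genes. None was lower at an unadjusted p below 0.05, and 0 were lower by DESeq2. The median log2 fold change was 0.07, and it turned to -0.09 with library size alone, to -0.14 with the length trend removed and to -0.06 in FPKM. Relative to the median of all genes in each fit, it stood at 0.08 in the reported fit and with library size alone. It stood at 0.06 in FPKM (-0.01 without the filter) and at -0.16 with the length trend removed. Among the calls were Rps27l, Rps2, Rps19, Rpsa, Rps15 and Rps20. With the length trend removed 1 small subunit protein was called higher and 11 lower, against 19.4% of all genes higher and 20.6% lower in that fit.

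Rps27l (chr9:66946086-66949516, plus strand), a paralog of the zinc-finger protein Rps27 and a known p53 target gene, gave the smallest p of all members. The I/R livers were at 103.2, 99.3 and 101.8 CPM and the I/R+Rk2 livers at 145.5, 133.1 and 160.9 CPM, the lowest Rk2 liver well above the highest vehicle liver. Means were 102 ± 1.98 and 147 ± 13.9 CPM (SD, n = 3), 1.44-fold apart (log2 fold change 0.53, standard error 0.09, edgeR adjusted p = 0.00419). The call held under 17 of 18 alternatives, FPKM and library size alone among them, and was lost only with the length trend removed, at 0.25 (edgeR adjusted p = 0.0648).

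Rps27 itself, at 63.1 ± 5.79 and 65.5 ± 3.58 CPM (SD, n = 3), did not pass the test (log2 fold change 0.05, edgeR adjusted p = 0.686). The ratio of Rps27l to Rps27 counts within a library was 1.62, 1.74 and 1.48 in I/R and 2.12, 2.01 and 2.62 in I/R+Rk2, so the paralog outweighed its relative more in each Rk2 liver. With 3 livers a group the two-sided exact permutation test could not go below p = 0.1, which this ratio reached (0.3 after Benjamini-Hochberg adjustment over the 4 paralog pairs). The windows above show a pyrimidine stretch at the start of Rps27 and at the first of the 2 annotated starts of Rps27l, whereas the other start of Rps27l had none. Reads common to close relatives can be assigned to either, so values of paralogs are less certain than those of the other members.

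Ratios for the other paralog pairs overlapped between groups. Rpl22l1 over Rpl22 was 0.518, 0.589 and 0.448 in I/R and 0.532, 0.435 and 0.4 in I/R+Rk2 (exact permutation p = 0.3). Rpl7l1 over Rpl7 gave p = 0.2 and Rpl36al over Rpl36a p = 0.3 in the same exact test, and all 3 were 0.3 after adjustment. Neither Rpl22l1 (log2 fold change -0.06, edgeR adjusted p = 0.635) nor Rpl36al (0.29, 0.0616) was called, and both share exon positions with another annotated gene.

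Rps2, the most abundant small subunit mRNA per length and a protein close to the channel where mRNA enters, was at 327.2, 327.8 and 352.3 CPM in the I/R livers and at 397.5, 456.1 and 441.3 CPM in the I/R+Rk2 livers. Its 3 Rk2 livers all lay above the vehicle livers. Means were 336 ± 14.3 and 432 ± 30.5 CPM (SD, n = 3; log2 fold change 0.36, standard error 0.09, edgeR adjusted p = 0.0161). Leaving out I/R+Rk2 replicate 2 gave 0.32 (edgeR adjusted p = 0.0584). With library size alone the value was 0.2 (0.141), and with the length trend removed 0.16 (0.203).

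Rps19, which is mutated in Diamond-Blackfan anemia, was at 66.8, 65.1 and 70.9 CPM in vehicle livers and at 83.9, 84.6 and 79.4 CPM in Rk2 livers (log2 fold change 0.29, edgeR adjusted p = 0.0218). The groups did not overlap, but the call held under only 9 of the 18 alternatives, with 0.05 (edgeR adjusted p = 0.622) when the length trend was removed and 0.13 (0.355) with library size alone. Rps15, a protein of the head of the small subunit, was called higher at 0.28 (edgeR adjusted p = 0.0269). Its call held under 10 of the 18 alternatives and was lost with library size alone (0.11, edgeR adjusted p = 0.437) and in FPKM (0.12, limma adjusted p = 0.382), and with the length trend removed no difference was left (adjusted p = 1).

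Rpsa, also known as a laminin receptor, was at 191.9, 191.3 and 188.5 CPM in vehicle livers and at 226.2, 235.5 and 223.7 CPM in Rk2 livers. That difference of 0.26 on the log2 scale (standard error 0.07, edgeR adjusted p = 0.0243) was tight within each group by count, but -0.004 in FPKM.

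Rps20 (chr4:3831334-3835665, minus strand), a protein of the head of the small subunit, showed the widest difference of the members (log2 fold change 0.64, standard error 0.22, edgeR adjusted p = 0.0482). It was at 70.2, 70.9 and 80.1 CPM in vehicle livers and at 75.4, 132.3 and 136.7 CPM in Rk2 livers. One Rk2 liver, replicate 1, therefore lay within the vehicle range, and the other two carried the difference. With that liver left out the difference widened to 0.86 (edgeR adjusted p = 0.00138), and without any of the other 5 livers, one at a time, the call was lost, with adjusted p from 0.0836 to 0.139. In FPKM the gene stood at 32.1, 32.4 and 38.3 in I/R and at 22.2, 40.2 and 39 in I/R+Rk2 (log2 fold change -0.06, limma adjusted p = 0.842), so its direction differed between the tables.

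**Figure D3:**
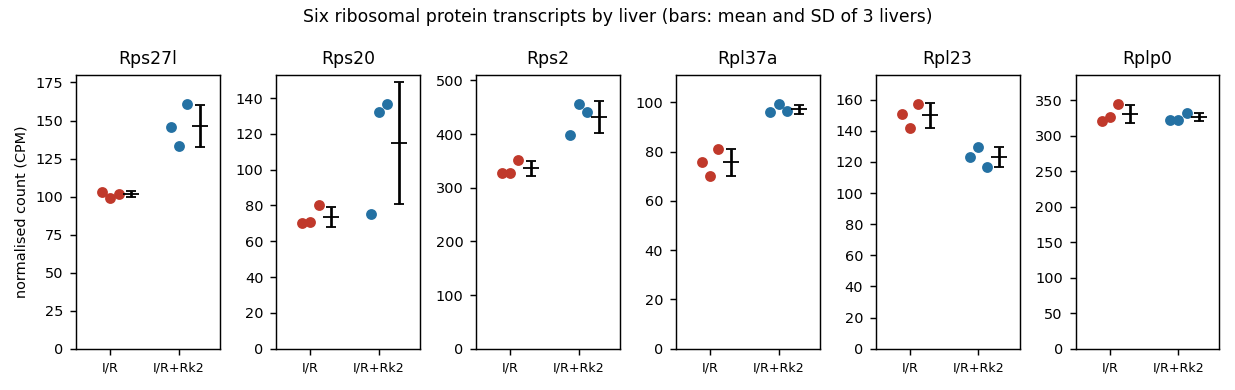
Normalised counts (CPM, axes from 0) of Rps27l, Rps20, Rps2, Rpl37a, Rpl23 and Rplp0 in each I/R (red) and I/R+Rk2 (blue) liver, with mean and SD of 3 livers. The groups are apart for Rps27l, Rps2 and Rpl37a (higher in Rk2 livers) and Rpl23 (lower), 1 Rk2 liver of Rps20 sits among the vehicle livers, and Rplp0 overlaps.

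At the lower end of the small subunit no gene passed the test. Rps27a, made as a fusion with ubiquitin, was at -0.13 (edgeR adjusted p = 0.408), the X-linked Rps4x at -0.12 (0.231) and Rps12 at -0.08 (0.461). All 3 were called lower with the length trend removed, at -0.37, -0.33 and -0.36. Rps6, the substrate of the kinases that mTORC1 activates, had means of 190 ± 10.9 CPM without and 189 ± 4.41 CPM with Rk2 (SD, n = 3; log2 fold change -0.01, edgeR adjusted p = 0.913).

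Across both subunits, 67 tested members were not called. Their log2 fold changes lay between -0.2 and 0.29, 44 above and 23 below zero, and for 22 of them the groups did not overlap. Over all tested genes, called or not, the groups did not overlap for 57.4%. The uncalled members nearest to the threshold were Rpl8, at 0.21 (edgeR adjusted p = 0.0613), and Rpl10a, at 0.25 (0.0615), chosen after their values were seen. Of proteins that sit on the ribosome under other names, Fau, a ubiquitin-like protein fused to a small subunit protein, gave 0.16 (edgeR adjusted p = 0.144) and the scaffold Rack1 0.06 (0.555), and both turned negative with the length trend removed (-0.12 and -0.08).

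The direction of these small differences followed how the libraries were made comparable. Member transcripts are short, with a median of 771 bases against 2651 for all tested genes, and a trend of a gene's relative level on transcript length was fitted in each library. Taking out that trend moved the members from 57 of 81 above zero to 17 of 81, and moved the calls from 13 higher and 1 lower to 1 higher and 18 lower, where the shares of all genes called were 20.3% higher and 23.7% lower before and 19.4% and 20.6% after. Whether the length trend is technical or part of the response to Rk2 was not tested. At the ends of the order, Rpl23 was the lowest member in that fit (-0.48), with library size alone (-0.44) and in FPKM (-0.45), and Rps27l, at 0.25, 0.36 and 0.37, was the highest in FPKM and exceeded only by Rps20 in the other fits.

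**Figure D4:**
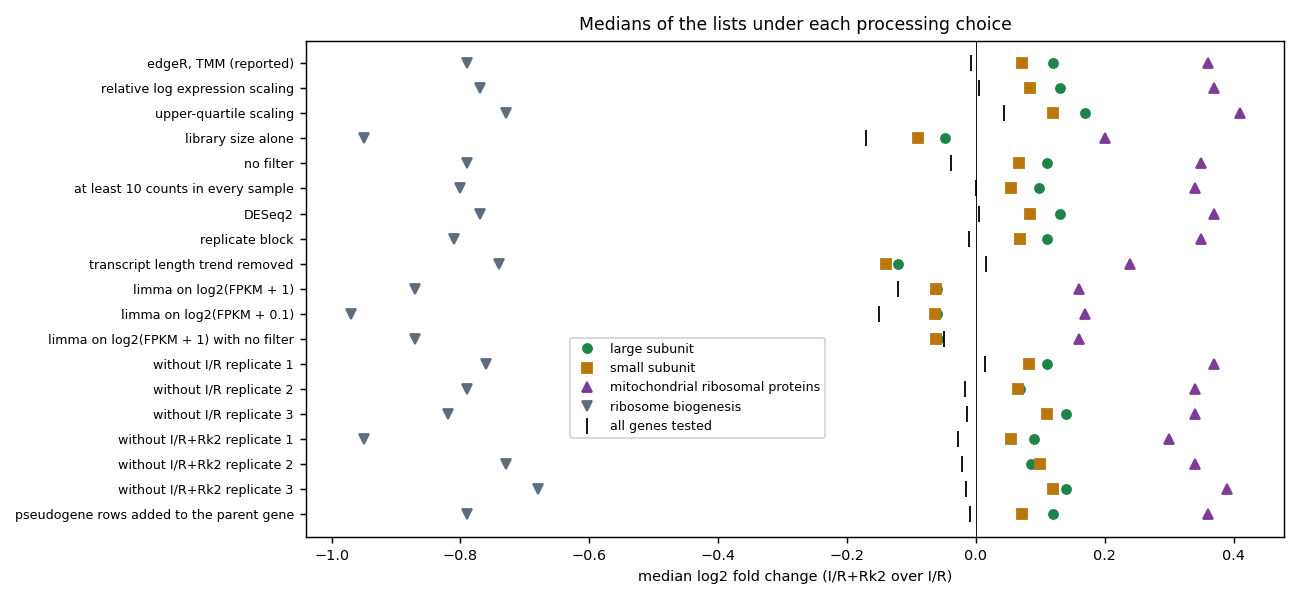
Median log2 fold change (I/R+Rk2 over I/R) of the large subunit (circles), small subunit (squares), mitochondrial ribosomal proteins (upward triangles), ribosome biogenesis genes (downward triangles) and all tested genes (ticks), 1 row for each way of processing. Cytosolic medians lie on both sides of zero, from 0.17 with upper-quartile scaling to -0.14 with the length trend removed, while mitochondrial medians stay above zero and biogenesis medians stay at -0.68 or lower.

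Genes that build ribosomes were lower in the Rk2 livers. Their list and those below were chosen with earlier results of these data known. For scale, 23.7% of all tested genes were called lower, 20.3% higher and 14.6% past a fold change of 2. Of 66 tested ribosome biogenesis genes 48 were called lower and 1, the small nucleolar RNA partner Nop10 (0.55, named after its value was seen), higher in I/R+Rk2, with a median log2 fold change of -0.79 and 24 past a fold change of 2. Their summed level was 2342, 2367 and 2280 CPM in the I/R livers and 1587, 1374 and 1306 CPM in the I/R+Rk2 livers, well apart. Mdn1, an ATPase that remodels large subunit precursors, fell from 29.2 ± 2.77 to 6.71 ± 0.698 CPM (SD, n = 3; log2 fold change -2.11, edgeR adjusted p = 0.00024). Heatr1 and Wdr43, of the small subunit processome, were at -1.72 and -1.38. Between 39 and 55 of these genes were called lower under the alternatives.

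RNA polymerase I genes were also lower, with a median of -0.63 and 10 of 16 called lower (all tested genes: 23.7% lower, 20.3% higher). Its subunits Cd3eap and Polr1b were at -1.5 and -1.23, and Myc, a transcription factor that promotes ribosome production, at -0.69 (edgeR adjusted p = 0.00438). Of 12 chaperones and importins of ribosomal proteins 5 were called lower and 1 higher, among them the importins Ipo5 and Ipo7, both at -0.83, and Grwd1, the chaperone of Rpl3, at -1.26. Translation factors whose mRNAs carry TOP tracts had a median of -0.03, and 2 of 15 were called, both lower. These were Pabpc1, the poly(A)-binding protein, from 229 ± 0.92 to 145 ± 9.29 CPM (SD, n = 3; -0.66, edgeR adjusted p = 0.00126), and Nap1l1, a histone chaperone (-0.69).

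Regulators upstream changed in few genes. Of 16 tested mTORC1 and TOP mRNA regulators 1 was called higher and 2 lower, where 20.3% and 23.7% of all tested genes were. Eif4ebp1, the translation repressor that mTORC1 inactivates, fell from 49.6 ± 1.47 to 31.2 ± 2.56 CPM (SD, n = 3; log2 fold change -0.67, edgeR adjusted p = 0.00179). Deptor, an inhibitor of mTOR, was at 0.64 and the GTPase Rragd at -0.97. Ribosome quality control genes gave 1 higher and 4 lower of 17, with the recycling factor Abce1 at -0.46. The snoRNA host transcripts listed had 0 entries in the count table.

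The mRNAs for proteins of the other ribosome of the cell, the mitochondrial one, were mostly higher in the Rk2 livers. Of 78 mitochondrial ribosomal proteins 42 were called higher and 0 lower, against 20.3% and 23.7% of all tested genes. Their median log2 fold change was 0.36, with 71 above and 7 below zero. Their summed level was 1659, 1661 and 1655 CPM in the I/R livers and 2153, 2077 and 2011 CPM in the I/R+Rk2 livers. Mrpl13 rose from 25.4 ± 0.792 to 37.5 ± 0.359 CPM (SD, n = 3; 0.56, edgeR adjusted p = 0.00182), with Mrpl12 and Mrpl4 at 0.6 and 0.61. The number called higher was 16 with library size alone, 18 in FPKM and 28 with the length trend removed, and it ran from 27 (without I/R replicate 3) to 37 on leaving out 1 liver, with 28 without I/R+Rk2 replicate 2.

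**Figure D5:**
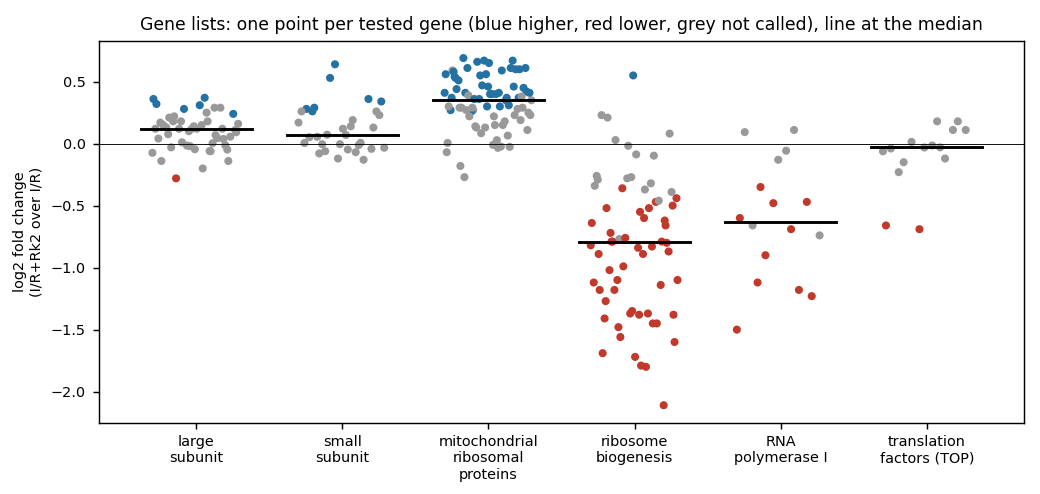
Log2 fold change (I/R+Rk2 over I/R) of every tested gene in 6 lists, with a line at each median; blue was called higher, red lower, grey not called. Cytosolic ribosomal proteins lie in a band around medians of 0.12 and 0.07, which turn negative with library size alone, in FPKM and with the length trend removed. The median of all tested genes was also below zero with library size alone (-0.17) and in FPKM (-0.12). Mitochondrial ribosomal proteins lie higher and biogenesis and RNA polymerase I genes mostly below zero.

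Marker mRNAs of several cell types differed between the groups at the same time. In bulk tissue fewer cells of a type and less RNA per cell cannot be told apart. The shares of all tested genes called were 20.3% higher and 23.7% lower. Monocyte markers were called lower in 6 of 6, with a summed level of 159 to 184 CPM in I/R and 4.83 to 10 CPM in I/R+Rk2, and neutrophil markers in 7 of 8, from 513 to 628 and from 92.6 to 214 CPM. Hepatocyte markers were called higher in 5 of 8, with 68750 to 80340 CPM in I/R and 104300 to 127800 CPM in I/R+Rk2, and erythroid genes in 5 of 5, with 1301 to 2520 and 3243 to 4195 CPM. Of the Kupffer cell, stellate cell and cholangiocyte markers 1 of 6, 1 of 4 and 1 of 4 were called, all lower, and of 5 endothelial markers 2 were higher and 2 lower. B cell and T and NK cell markers summed to at most 1.135 CPM in any library, and none was tested; Cd79b, Ms4a1, Cd3d, Cd3e, Cd3g, Cd8a and Nkg7 were among those at 0 counts in at least 1 library. The part of these shifts in the ribosomal protein values was not tested.

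Near-identical copies bear on several members. Of the 84 members 10 have processed pseudogenes among the rows of the count table, 12 rows in all, of which 11 were tested and 1 was called higher. Adding those rows to their parent genes, and the row named Rps27rt to Rps27, left 6 large subunit proteins called higher, 1 lower and 7 small subunit proteins higher. In GENCODE M21, 19 tested members share exon positions with another gene. None of the named members called above does so.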

How the data were processed

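Liver RNA (250 ng per library) was prepared with an MGI kit and sequenced on a BGISEQ platform. The authors aligned reads to mm10 with HISAT2 2.2.1 and quantified genes with StringTie 1.3.3 (labels: FastQC 0.11.5); annotation and strand setting were not given in the sources used here. They deposited whole-number counts per gene and a separate table of FPKM, normalised by the authors to transcript length and depth. StringTie counts are derived from coverage, so low counts are approximate. Ribosomal protein members and the gene lists were chosen with earlier results of these data known.

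Counts were analysed with edgeR 4.0.16 in R 4.3.3 (filterByExpr, TMM, quasi-likelihood F test, no covariates, 6 libraries, Benjamini-Hochberg over 12411 genes, called at adjusted p below 0.05); the code was tested on simulated data. Positive log2 fold changes mean a higher level in I/R+Rk2. Other settings tried were scaling by relative log expression, by upper quartile or by library size only, a table with every gene kept, a minimum of 10 counts in every sample, DESeq2 1.42.0, a replicate block, removal of a lowess trend on transcript length in each library, limma 3.58.1 on log2(FPKM + 1) at a mean FPKM of at least 1, on log2(FPKM + 0.1) and without that filter, leaving out each liver and, added after the data were seen, pseudogene rows summed into their parents. FPKM fold changes are on the log2(FPKM + 1) scale, which understates low genes. Nothing in the labels says more than that replicates were separate livers, so p-values measure the spread between them. Genes named are, for each subunit, the 5 with the smallest p, the 3 highest and 3 lowest fold changes and the highest FPKM, all paralogs, stalk proteins and ribosomal proteins under other names, and at most the 3 smallest p of other lists. A few genes that the rule takes are not reported or plotted by name here; all tests and counts include them. Gene positions are from GENCODE M21 (GRCm38, that is mm10).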

Additional observations from a re-analysis of the deposited data

How the results depend on the processing

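For single named genes 656 comparisons with an alternative kept sign and side of the threshold, 141 lost a call, 20 gained one and 21 changed sign. Among genes called in the reported fit the sign changed for Rpl35a with the length trend removed (-0.041), and for Rps20 (-0.061, -0.064 and -0.061) and Rpsa (-0.0038, -0.0039 and -0.0038) in the fits on log2(FPKM + 1), log2(FPKM + 0.1) and log2(FPKM + 1) without a filter. Among genes not called it changed for Rpl13a (-0.063), Fau (-0.12) and Rack1 (-0.084) with the length trend removed, for Rpl13a (-0.058) and Rack1 (-0.055) in each FPKM fit, for Rack1 (-0.1) with library size alone, for Rplp0 with upper-quartile scaling (0.032) and, on leaving out 1 liver, for Rplp0 (-0.032 to 0.0088, positive without I/R replicate 3), Rplp2 (-0.11 to 0.017) and Rpl22l1 (-0.11 to 0.011), the last 2 positive without I/R+Rk2 replicate 3. Large subunit proteins called higher numbered 11 with upper-quartile scaling and 0 with library size alone, with the length trend removed and in each FPKM fit, and 1 to 5 on leaving out 1 liver, lowest without I/R+Rk2 replicate 2; those called lower numbered 0, 3, 7 and 4 in the same order, and 0 to 2. Small subunit proteins called higher numbered 1 with library size alone, with the length trend removed and in each FPKM fit, and 1 to 7 on leaving out 1 liver, again lowest without I/R+Rk2 replicate 2; 11 were called lower with the length trend removed and 1 in FPKM without a filter. Ribosome biogenesis genes called higher numbered 2 with upper-quartile scaling. The large subunit median was -0.048 with library size alone, -0.12 with the length trend removed and -0.061, -0.061 and -0.058 in the 3 FPKM fits, and 0.068 (without I/R replicate 2) to 0.14 on leaving out 1 liver. The small subunit median was 0.12 with upper-quartile scaling, -0.09, -0.14, -0.062, -0.064 and -0.062 in the others, and 0.054 to 0.12 on leaving out 1 liver. The mitochondrial median was 0.41 with upper-quartile scaling and 0.2, 0.24, 0.16, 0.17 and 0.16 in the others, and 0.3 to 0.39 on leaving out 1 liver, and the biogenesis median was -0.97 on log2(FPKM + 0.1). Over all genes the number called was lowest, 3781, on log2(FPKM + 0.1). The cause of these differences was not tested. Same-numbered livers deviated together by correlations of only -0.03, 0.05 and -0.02. That gave no sign of pairing by number, but 3 livers a group cannot exclude it. With a replicate block 4 large subunit proteins were called higher, 0 lower, and 5 small subunit proteins higher. The 3 untested members had too few counts to be tested.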

Other observations

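The count and FPKM tables disagreed for some members. The value compared was the log2 ratio of count to FPKM. Each library's median over the members and then each gene's median over the libraries were taken out of it. The widest range over the 6 libraries was 0.64 on the log2 scale, for Rps20. For this gene the ratio split by group. It stood at -0.16, -0.3 and -0.4 in vehicle livers, against 0.25, 0.16 and 0.23 with Rk2. The cause of that split was not tested. Next came Rpl7 with a range of 0.59, where I/R+Rk2 replicate 2 stood apart by -0.54 and I/R replicate 1 by -0.3. Rps13 followed with a range of 0.52, where I/R+Rk2 replicate 1 stood apart by -0.32. These genes were chosen for that range after their values were seen.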
